A study of Mus musculus with 8 samples.

Results

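Calmodulin and the protein kinases that it switches on were followed in submandibular salivary glands of male mice. The 9 genes were chosen by name: the calmodulin gene Calm2, the kinase kinases Camkk1 and Camkk2, their substrates Camk1, Camk1d and Camk4, and the multifunctional kinases Camk2b, Camk2d and Camk2g. They are 9 of the 54838 genes in the count tables, and all 9 passed the filter on low counts that left 19358 genes to test. The choice was made with the genotype difference known, Camk1d being on the list because it differed, so the differences of these 9 genes between genotypes are given as a description and carry no p-value.

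The 4 Dp16 libraries came from mice with the duplication B6.129S7-Dp(16Lipi-Zbtb21)1Yey/J. It gives the segment of chromosome 16 from Lipi to Zbtb21 (75540514 to 97962622 on GRCm38) 3 copies instead of 2, and the mice serve as a model of Down syndrome. The 4 WT libraries came from C57BL/6J mice, the strain that the labels also give for Dp16, whose genotype they call transgenic. No treatment is named, the age is not given in the sources used here, and the duplication is carried by every cell type of the gland. None of the 9 genes lies in the duplicated segment. RNA was total RNA freed of ribosomal RNA, and values are CPM, gene reads scaled to library size after TMM normalization. The 4 libraries of a group are named as separate samples, but nothing says whether each came from 1 mouse, so the spread between them may be partly technical.

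Libraries held 90790542 to 111805185 gene reads in Dp16 and 97847453 to 115729892 in WT. Reads that overlapped no counted feature, which can include intronic reads, were 18.4% to 20.8% of all reads in Dp16 and 13.8% to 15.9% in WT. The labelled tissue was checked by 8 acinar markers, which, mostly through the mucin-like product Mucl2, summed to 225004 to 308140 CPM in Dp16 and 257459 to 363626 CPM in WT, and none was without reads in any library. The sums do not show that Bpifa2 ranged from 4.23 to 229 CPM between libraries and Dcpp1 from 0.347 to 22.3 CPM. The reason for these ranges was not tested. Of the 8 markers, 7 had negative log2 fold changes (median -0.25) and 0 passed edgeR. An unadjusted p below 0.05 was reached by 2, beside 24.6% of all genes tested. DESeq2 called the same 2, beside 9.78% of the genes to which it gave an adjusted p. Nothing is read from these counts. The 2 genes, named after their values were seen, were the water channel gene Aqp5 (66.6 ± 12.9 CPM in Dp16 and 105.6 ± 7.96 in WT) and the acinar transcription factor gene Bhlha15 (124 ± 22.2 and 221 ± 43.9). Each was without overlap, as were 14.1% of all genes tested (edgeR adjusted p = 0.0589 for both). Their part in the results on kinases was not tested. In such bulk tissue, fewer cells of a type and less RNA per cell cannot be told apart.

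Calmodulin is a small protein that binds calcium through 4 EF-hand loops and then wraps around target proteins. In the salivary gland, calcium released after muscarinic stimulation opens the channels that drive fluid secretion, and calmodulin is one of the sensors of that signal. CaMKK phosphorylates CaMKI and CaMKIV in a cascade that also reaches AMP-activated kinase and CREB, whereas CaMKII forms large holoenzymes that can hold themselves active by autophosphorylation.

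Calm2 and Calm3 are known to encode the same protein, so their reads can be told apart only by silent differences in the coding sequence and by their untranslated ends. The coding sequence has 450 bases in each. Calm3 and Calm2 differ at 78 of them (82.7% identity), 74 of which are codon base 3, 4 codon base 1 and 0 codon base 2. The longest stretch without a difference was 17 bases. Coding bases 61 to 150, which take in the first EF-hand loop, are shown to make this visible. They come from the GENCODE M21 transcripts of GRCm38, on chromosome 17 (minus strand) for Calm2 and 7 (minus strand) for Calm3. Capitals mark the bases at which the pair differ.
Calm2: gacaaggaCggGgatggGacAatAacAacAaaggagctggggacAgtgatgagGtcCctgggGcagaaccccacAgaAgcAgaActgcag
Calm3: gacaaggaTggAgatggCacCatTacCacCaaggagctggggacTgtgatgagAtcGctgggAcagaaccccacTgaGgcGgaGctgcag
Of these 90 bases, 15 differed. No 50-base window was shared by the transcripts of Calm2 and Calm3. The windows that Calm2 shared, 9.72% of its 1512, lay in 3 annotated processed pseudogenes, which had at most 97 reads in a library, against at least 29116 for Calm2. Reads with several alignments are in neither count, so these counts do not show how many Calm2 reads such windows cost. Camk1d, Camk2d, Camk2g, Camkk1 and Camkk2 shared no such window with any annotated gene, Camk1 shared 2.22% with Ogg1 on the opposite strand, Camk4 0.710% and Camk2b 0.159%. The read length is not given in the sources used here. At 100 bases the Calm2 share was 0.720%.

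Across the 9 genes, Camk1d was higher in Dp16 glands and Camkk1 lower without overlap between the groups, while the other 7 had overlapping libraries. By edgeR over all genes 1 of the 9 was past an adjusted p of 0.05 (Camk1d), beside 0.625% of all genes tested, of which 0.47% were called higher in Dp16 and 0.155% lower. DESeq2 called 2 of the 9, Camk1d and Camkk1, beside 9.78% of the genes to which it gave an adjusted p, and limma-voom called Camk1d, beside 2.05%. Libraries did not overlap for 2 of the 9, beside 14.1% of all genes tested. The contrast entered the choice of the genes, so nothing is read from these counts. The median log2 fold change (Dp16 over WT) of the 9 was 0.04, with 5 above 0, and that of all genes tested was 0.01, with 51.1% above 0.

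**Figure D1:**
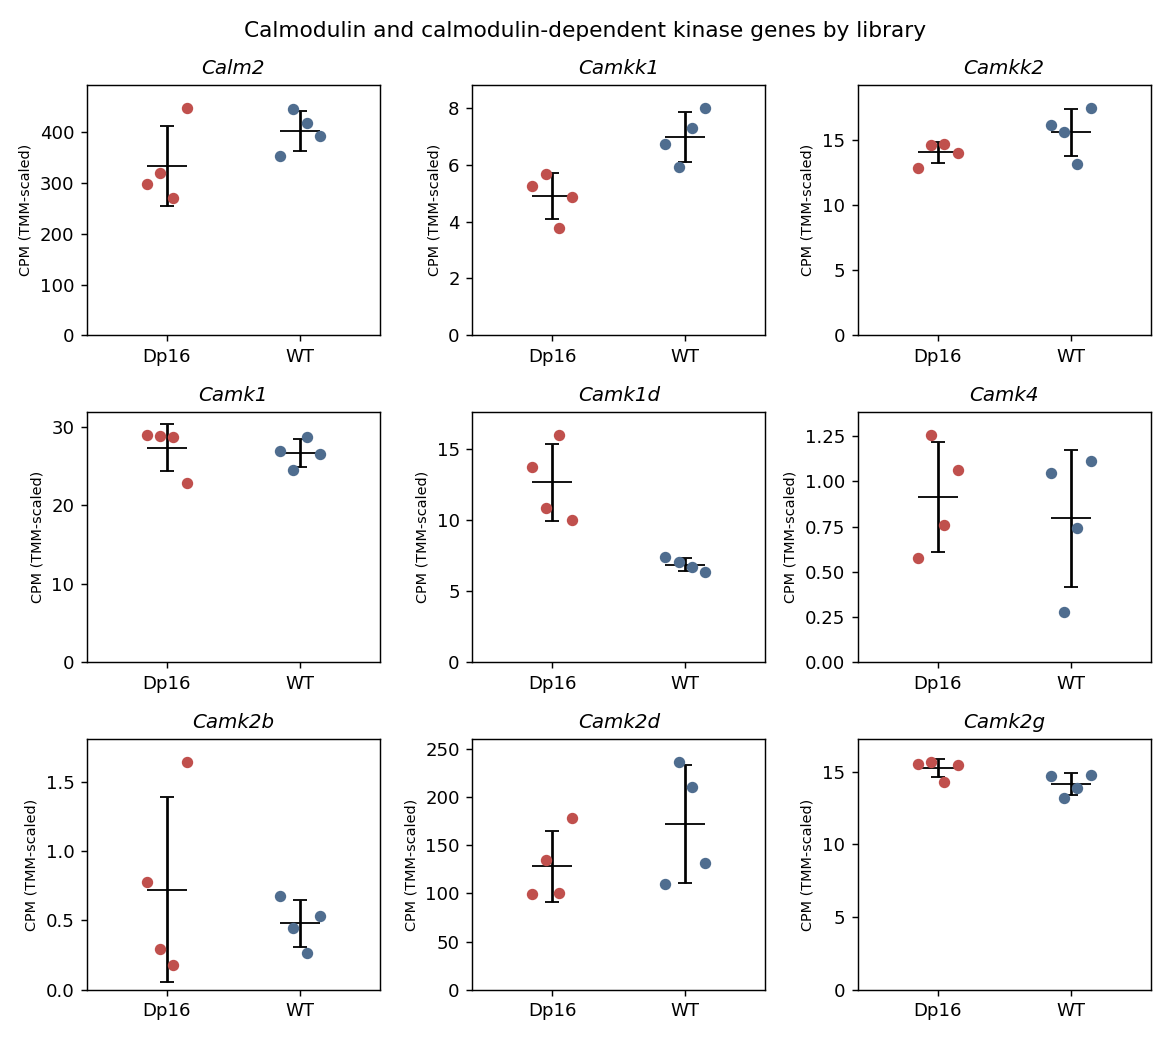
Level of each of the 9 genes (CPM, TMM-scaled, axis from 0) in the 4 Dp16 and 4 WT libraries. Points are libraries, the horizontal line is the mean and the bar 1 SD. Camk1d sits at 10.01 to 16.0 CPM in Dp16 and 6.32 to 7.42 in WT, and Camkk1 at 3.78 to 5.68 in Dp16 and 5.90 to 7.999 in WT.

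Per length, Calm2 stood far above every kinase. In CPM per kilobase of annotated exon it had a level of 228 ± 53.6 in Dp16 and 275 ± 26.9 in WT (SD, n = 4 each). Camk2d came next among the 9 with 5.70 ± 1.64 in Dp16 and 7.65 ± 2.71 in WT, then Camk1 with 4.58 ± 0.497 and 4.47 ± 0.292, and Camk2g with 2.38 ± 0.0979 and 2.21 ± 0.119, Dp16 first in each pair. Camk2d and Camk1 overlapped in Dp16 libraries but not in WT libraries. Camk1d, Camkk1 and Camkk2 lay close together. In Dp16 they had 1.70 ± 0.367, 1.31 ± 0.219 and 1.29 ± 0.0763, with overlapping ranges for each neighbouring pair. In WT they had 0.924 ± 0.0641, 1.87 ± 0.237 and 1.43 ± 0.167, and every WT library of Camk1d lay below those of both kinase kinases. Camk4 had 0.281 ± 0.0934 in Dp16 and 0.244 ± 0.116 in WT. Camk2b was lowest with 0.0792 ± 0.0730 in Dp16 and 0.0526 ± 0.0186 in WT, resting on 19 to 159 reads a library. With the longest transcript in place of the exon union, Camk2d came to 23.2 in Dp16 and 31.1 in WT, because its annotated exons span 22493 bases and its longest transcript 5524, and Camkk2 (2.89 and 3.21) passed Camkk1 (1.32 and 1.88).

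Calm2 and Calm3 had lower means in Dp16, and the groups overlapped for both. Calm2, on chromosome 17 from 87433412 to 87446935, had 299, 319, 270.3 and 448 CPM in Dp16 replicates 1 to 4, against 353, 446, 419 and 393 CPM in WT replicates 1 to 4. Dp16 replicate 4 was the highest of all 8 libraries and the other Dp16 libraries lay below every WT library. The log2 fold change was -0.27 (SE 0.159). Calm3, not among the 9, had 42.8 ± 6.05 CPM in Dp16 and 49.6 ± 4.93 in WT (SD, n = 4 each), with a log2 fold change of -0.21 (SE 0.113) that did not pass (edgeR adjusted p = 0.269). Of the calmodulin-like genes, Calml3, an epithelial one, had 1.86 ± 0.353 CPM in Dp16 and 1.16 ± 0.260 in WT without overlap (log2 fold change 0.68, SE 0.212, edgeR adjusted p = 0.112). Calml4 had at most 55 reads in a library (0.62, edgeR adjusted p = 0.435) and Calm4 at most 1.

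Among the kinase kinases, Camkk1, on chromosome 11 from 73019008 to 73042073, had 5.26, 5.68, 3.78 and 4.87 CPM in Dp16 replicates 1 to 4, against 6.74, 5.90, 7.27 and 7.999 CPM in WT. Each Dp16 library lay below each WT library, by a margin of 5.68 against 5.90 at the closest. Its log2 fold change was -0.51 (SE 0.148), past the threshold of DESeq2 but not of edgeR or limma-voom. Camkk2, the form that also activates AMP-activated kinase in many tissues, had 12.9, 14.6, 14.7 and 14.0 CPM in Dp16 and 16.2, 15.6, 13.1 and 17.5 in WT, overlapping because of WT replicate 3 (log2 fold change -0.15, SE 0.1002). The class as a whole summed to 18.9 ± 0.957 CPM in Dp16 and 22.6 ± 2.19 in WT, with no overlap but only 20.3 against 20.4 CPM at the closest. Camkk2, whose groups overlapped, made up 74.2% of the class reads in Dp16 and 69.0% in WT. Camkk1 gave 25.8% ± 3.81 of the class reads in Dp16 and 31.0% ± 3.49 in WT, and these shares overlapped.

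In the CaMKI class the share of Camk1d was larger in Dp16, while the class totals overlapped. Camk1d encodes CaMKI delta, a kinase known from granulocytes, and lies on chromosome 2 from 5293457 to 5714515. It had 13.7, 10.9, 16.0 and 10.01 CPM in Dp16 replicates 1 to 4, against 7.42, 7.05, 6.67 and 6.32 CPM in WT. All Dp16 libraries were above all WT libraries, and Dp16 replicates 1 and 3 were the highest. The log2 fold change was 0.88 (SE 0.149), a fold of 1.84. It stayed between 0.75 and 0.97 under 15 other settings. Those of another tool, scaling, filter or block, 7 in all, kept the gene past the threshold. Of the 8 fits without 1 library only that without Dp16 replicate 2 did, and the fits without Dp16 replicates 1, 3 and 4 and without each WT replicate did not. These refits use the values that put the gene on the list, so they are a description and no support for the difference. Its close paralog Camk1, the founding member of the class, had 29.0, 28.8, 28.8 and 22.9 CPM in Dp16 and 27.0, 24.5, 28.7 and 26.6 in WT, overlapping throughout (0.04, SE 0.093). Camk1 has 232 exonic bases opposite exons of Ogg1. Reads there cannot be assigned to either gene unless strand was used in counting, and whether they were counted or dropped is not given. Pnck, the X-linked CaMKI beta gene, had 2.28 ± 0.580 CPM in Dp16 and 1.69 ± 0.336 in WT (0.44, SE 0.224, edgeR adjusted p = 0.256), and Camk1g had at most 13 reads in a library and was not tested.

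Camk1d gave 29.9%, 25.8%, 34.3% and 28.6% of CaMKI reads in Dp16 replicates 1 to 4, against 20.4%, 21.5%, 17.9% and 18.2% in WT. The groups did not overlap, with a difference of 10.2 percentage points (SD 3.56 in Dp16 and 1.72 in WT). Camk1d was listed because it differed and Camk1 was level. The shares of both therefore describe the same difference again and are no further result. Camk1, the main gene of the class, gave 64.7% ± 2.88 in Dp16 and 75.6% ± 1.496 in WT, and Pnck 5.43% ± 1.33 and 4.75% ± 0.719. Per kilobase of exon the share of Camk1d was 22.7% ± 3.35 in Dp16 and 14.8% ± 1.48 in WT. The class total was 42.4 ± 5.24 CPM in Dp16 and 35.3 ± 2.00 in WT, and overlapped.

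**Figure D2:**
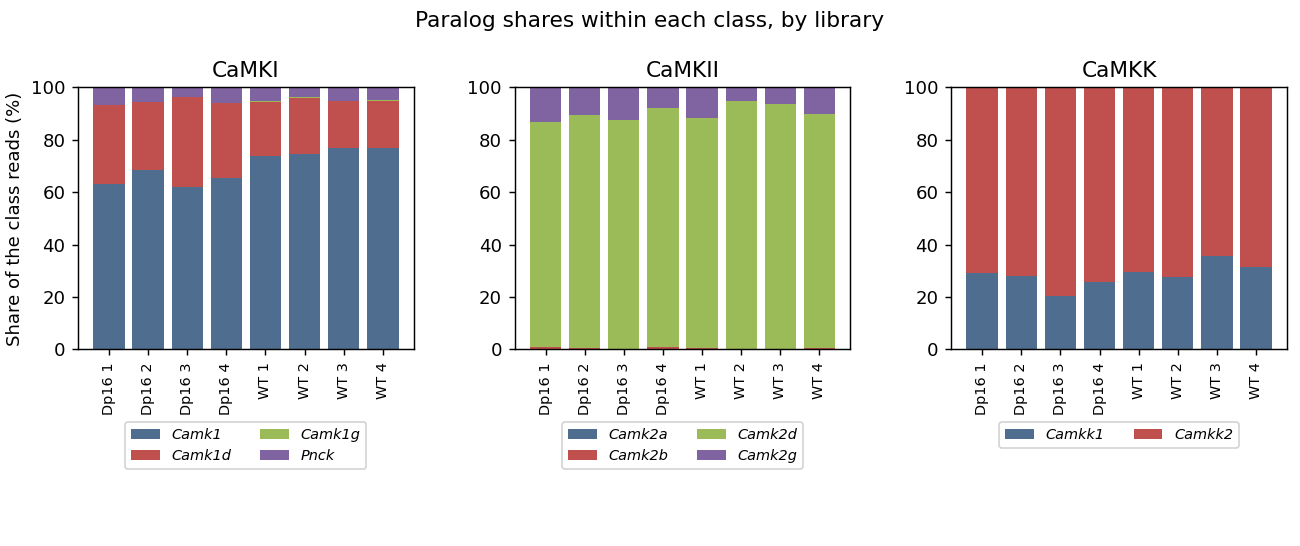
Share of each gene (%) in the summed TMM-scaled reads of its class, 1 bar per library, Dp16 1 to 4 on the left and WT 1 to 4 on the right. The Camk1d band in CaMKI is 25.8% to 34.3% in Dp16 and 17.9% to 21.5% in WT, and Camkk1 in CaMKK is 20.5% to 29.0% in Dp16 and 27.5% to 35.6% in WT.

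The upstream sequences of the pair of genes without overlap are shown because their cascade ends on CREB, whose palindromic site is TGACGTCA and its core TGACG, both searched on both strands. Each line gives the 250 bases before a RefSeq start on GRCm38.p6, from chr2:5714763-5715012 (minus strand) for Camk1d and chr11:73018738-73018987 (plus strand) for Camkk1, with cores in capitals.
Camk1d: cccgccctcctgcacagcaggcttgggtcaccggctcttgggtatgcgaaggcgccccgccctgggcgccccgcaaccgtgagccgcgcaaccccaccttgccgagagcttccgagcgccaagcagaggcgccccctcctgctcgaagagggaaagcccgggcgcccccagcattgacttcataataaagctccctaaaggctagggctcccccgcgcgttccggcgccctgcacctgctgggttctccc
Camkk1: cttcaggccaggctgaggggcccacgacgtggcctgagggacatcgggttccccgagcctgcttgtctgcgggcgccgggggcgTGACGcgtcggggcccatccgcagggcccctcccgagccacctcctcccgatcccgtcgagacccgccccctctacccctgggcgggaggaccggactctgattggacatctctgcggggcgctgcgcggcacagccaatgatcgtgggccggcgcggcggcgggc
Camkk1 has 1 core, starting 166 bases before the start, and Camk1d none. The table held 7 starts of 6 of the 9 genes. Of these 7, 2 had a core (Camk1 and Camkk1) and 0 the full site in the RefSeq window, which also takes in 50 bases after the start, beside 20.9% and 1.80% of the 32544 windows of all genes. A second start of Camk1d has 48.7% G and C, against 71.3% for the one shown, and the counts do not tell which is used.

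Markers of other cells are set beside Camk1d and Camkk1. The 18 lymphocyte markers summed to 101, 52.4, 139 and 81.7 CPM in Dp16 replicates 1 to 4 and to 42.5, 42.0, 41.3 and 32.9 CPM in WT. Most of each sum was Ptprc, a gene of leukocytes in general, at 40.0 to 88.4 CPM in Dp16 and 26.5 to 33.5 in WT. The sums therefore do not set lymphocytes apart from other leukocytes. The 2 Dp16 libraries with the highest marker sums, replicates 3 and 1, were also the 2 highest for Camk1d, and replicate 3 was the lowest for Camkk1. The order did not hold throughout, as Dp16 replicate 2 had a lower sum than replicate 4 but more Camk1d (10.9 against 10.01 CPM). Replicate 1, also high in the sum, had 5.26 CPM of Camkk1, above replicates 3 and 4. Of the 17 lymphocyte markers tested, all had a positive log2 fold change (median 1.88) and 1, the NK cell receptor gene Klrd1, was past the edgeR threshold, with 17 of 18 past that of DESeq2. None was without reads in any library. The mean log2 level of the tested lymphocyte markers overlapped between the genotypes, at -0.62 to 1.76 in Dp16 and -1.28 to -0.54 in WT. The 6 endothelial markers summed to 72.0 to 74.7 CPM in Dp16 and 52.0 to 65.0 CPM in WT, with 0 of 6 past the edgeR threshold, 4 at an unadjusted p below 0.05 and 2 past that of DESeq2. The 8 myeloid markers overlapped, at 131 to 192 CPM in Dp16 and 130 to 169 in WT (0 past the edgeR threshold, 1 at an unadjusted p below 0.05, 0 by DESeq2). Over all genes these shares were 0.625%, 24.6% and 9.78%. Dp16 replicate 3, highest for Camk1d, was also highest for Itgam, Cd68, Lyz2, S100a8, S100a9 and Csf3r, but not for Csf1r or Adgre1. It had 10.9 CPM of Itgam and 14.2 of Cd68, against 1.70 to 3.33 and 5.14 to 7.36 in the other libraries. The part of these cells in the levels of Camk1d and Camkk1 was not tested. By deviations from the mean of the own genotype over 8 libraries, the 5 genes most like Camk1d among 13532 were Pear1 (r = 0.992), Cfap43 (0.986), Fbrsl1 (0.986), Elmo1 (0.982) and Il4ra (0.976), which describes 8 points and was picked as the top of many. Ptprc stood at rank 804 in the same ranking (r = 0.775).

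**Figure D3:**
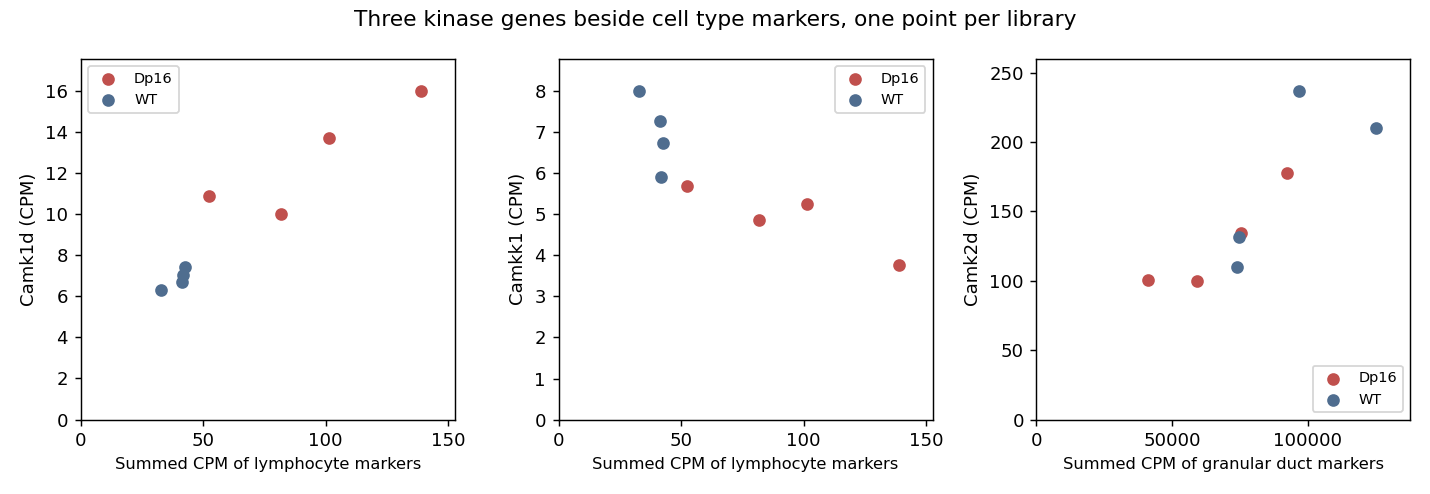
Camk1d and Camkk1 (CPM) against the summed CPM of 18 lymphocyte markers, and Camk2d against that of 7 granular duct markers, 1 point per library. The Dp16 libraries span 52.4 to 139 CPM of lymphocyte markers and the WT libraries 32.9 to 42.5. In every library these sums are mostly Ptprc, a gene of leukocytes in general.

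Camk4, the CaMKIV gene known for its place in T cells and neurons, had overlapping groups. It had 0.576, 1.26, 0.761 and 1.06 CPM in Dp16 and 1.05, 0.281, 0.744 and 1.11 CPM in WT (log2 fold change 0.20, SE 0.411), on 27 to 145 reads a library. The Dp16 library with the most lymphocyte marker reads, replicate 3, was not among its highest. The part of lymphocytes in the level of Camk4 was not tested.

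CaMKII was mostly Camk2d by reads, 88.3% ± 2.30 in Dp16 and 91.3% ± 3.34 in WT, with Camk2g making up 11.02% ± 2.41 and 8.32% ± 3.09. Per kilobase of exon, Camk2d gave 68.8% ± 4.97 in Dp16 and 75.5% ± 7.79 in WT, and Camk2g 29.9% ± 5.31 and 23.7% ± 7.31. Camk2d, on chromosome 3 from 126596302 to 126846326, varied widely within both groups, with 99.7, 135, 100.5 and 178 CPM in Dp16 and 109.9, 237, 210.4 and 131 CPM in WT. The groups overlapped (log2 fold change -0.42, SE 0.273). Camk2g was steady, with 15.5, 15.7, 14.3 and 15.5 CPM in Dp16 and 14.7, 13.2, 13.9 and 14.8 in WT (0.11, SE 0.075). Camk2b, the form of muscle and neurons, had 0.777, 0.295, 0.176 and 1.64 CPM in Dp16 and 0.675, 0.448, 0.268 and 0.529 in WT (0.58, SE 0.623), and its mean in Dp16 rested on replicate 4, without which the log2 fold change was -0.22. The skeletal muscle markers summed to only 1.15 to 1.40 CPM in Dp16 and 1.47 to 2.04 in WT, and the nerve markers to 3.53 to 5.90 and 2.66 to 4.03, Dp16 first in each pair. The part of such cells in the level of Camk2b was not tested. Camk2a, the neuronal form, had 7 to 34 reads a library (0.60, SE 0.438, edgeR adjusted p = 0.411).

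Markers of the granular ducts, the growth factor and kallikrein secreting tubules of male mice, are set beside Camk2d and Calm2. The 7 granular duct markers summed to 59053, 75248, 41282 and 92250.4 CPM in Dp16 replicates 1 to 4 and to 73767, 96764, 125266 and 74550.3 in WT. All 7 had negative log2 fold changes, and 1, the kallikrein gene Klk1, was past the edgeR threshold. These sums overlapped between the genotypes. The mean log2 level of the 7 markers did not, at 10.12 to 10.88 in Dp16 and 10.91 to 11.55 in WT, a narrow margin. Dp16 replicate 4 had the highest marker sum of the Dp16 libraries and also the highest Camk2d and Calm2, and WT replicates 2 and 3 had the highest sums of the WT libraries and the highest Camk2d and Calm2 among them. The part of granular duct cells in these levels was not tested. No pooled correlation is given for Camk2d, Calm2, Camk1d or Camkk1 with these marker lists, since differences between the genotypes would enter it. A group of 4 libraries is too few for one within a genotype.

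The wider calmodulin pathway held no gene past the edgeR threshold. Of 62 genes in 6 lists by role, 59 were tested and 0 were called, with 11 at an unadjusted p below 0.05 (18.6%, beside 24.6% of all genes tested), 3 called by DESeq2 (beside 9.78% of the genes to which it gave an adjusted p) and 0 by limma-voom. Their median log2 fold change was 0.04, with 34 of 59 above 0. Libraries of the genotypes did not overlap for 7 of the 59, beside 14.1% of all genes tested. Lack of overlap was thus no more common in these lists than among all genes tested.

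Pcp4, a small protein that binds calmodulin and speeds its exchange of calcium, is the 1 gene of these lists inside the duplicated segment, on chromosome 16 from 96467606 to 96525793. It had 6.97, 8.96, 2.75 and 7.37 CPM in Dp16 replicates 1 to 4, against 5.35, 5.89, 6.09 and 5.21 CPM in WT. Of the Dp16 libraries, 3 were above all WT libraries and replicate 3 was below them all. Its log2 fold change was 0.21 (SE 0.293, edgeR adjusted p = 0.681), and 243 of its exonic bases are shared with Igsf5 on the same strand. The CaMKII inhibitor gene Camk2n1 was level, at 26.5 ± 3.90 CPM in Dp16 and 26.5 ± 2.29 in WT (0.0011, SE 0.115, edgeR adjusted p = 0.997). Its relative Camk2n2 had 0.265 ± 0.110 CPM in Dp16 and 0.418 ± 0.0670 in WT (edgeR adjusted p = 0.250). Ppm1e, a phosphatase that switches off CaM kinases, had 0.592 ± 0.0577 and 0.420 ± 0.0547 in the same order, without overlap (0.49, SE 0.202, edgeR adjusted p = 0.181). Of 7 tested inhibitors and buffers 1 had an unadjusted p below 0.05 and 0 were called by DESeq2.

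Among 13 other calmodulin-dependent kinases, 2 had an unadjusted p below 0.05 and 0 were called by edgeR or DESeq2. They were the death-associated kinase gene Dapk2 (7.02 ± 0.399 CPM in Dp16 and 5.90 ± 0.532 in WT, without overlap) and the phosphorylase kinase subunit Phka2 (11.4 ± 1.27 and 9.80 ± 0.601), with edgeR adjusted p = 0.171 and 0.202. Of the 4 calcineurin genes, which encode the calmodulin-dependent phosphatase, 3 had negative log2 fold changes and 0 were called by edgeR or DESeq2. The regulatory subunit gene Ppp3r1 had 44.3 ± 2.71 CPM in Dp16 and 51.4 ± 0.914 in WT, without overlap (-0.21, SE 0.065, edgeR adjusted p = 0.110), and the catalytic Ppp3cb had 45.2 ± 4.12 and 51.0 ± 2.99 (edgeR adjusted p = 0.231).

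Pde1c and Pde1b, of the 3 calmodulin-dependent phosphodiesterase genes, whose products break down cyclic nucleotides, had the smallest p-values of the lists. Pde1c had 49.5, 54.4, 45.8 and 45.4 CPM in Dp16, against 41.3, 32.8, 33.2 and 39.8 CPM in WT, without overlap (log2 fold change 0.41, SE 0.1001, edgeR adjusted p = 0.0776). Pde1b had 2.42, 1.01, 2.94 and 1.35 CPM in Dp16, against 0.977, 0.832, 0.625 and 0.642 CPM in WT, again without overlap (1.33, SE 0.345, edgeR adjusted p = 0.0834). Dp16 replicates 1 and 3, which had the most lymphocyte marker reads, were the highest for Pde1b but not for Pde1c. The part of such cells in the levels of Pde1b and Pde1c was not tested. DESeq2 called both, with adjusted p = 0.0194 for Pde1c and 0.00440 for Pde1b. The other such gene, Pde1a, had 2.24 ± 0.551 CPM in Dp16 and 1.92 ± 0.512 in WT, with overlap (0.22, SE 0.240, edgeR adjusted p = 0.589). Of 9 tested calmodulin-regulated pumps and scaffolds, 0 were called by edgeR or DESeq2 and 0 had an unadjusted p below 0.05, with Iqgap2 at -0.13 and the plasma membrane calcium pump gene Atp2b1 at -0.15 (edgeR adjusted p = 0.414 and 0.508).

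Of 18 CaMK substrates and downstream regulators, 9 had positive log2 fold changes, 0 were called by edgeR, 5 had an unadjusted p below 0.05 and 1 was called by DESeq2. That was Crem, which encodes activators and repressors at CREB sites, with 8.47, 11.8, 7.93 and 8.70 CPM in Dp16, against 9.44, 20.6, 16.3 and 17.0 CPM in WT. WT replicate 1 lay within the Dp16 range (-0.78, SE 0.224, edgeR adjusted p = 0.0986, DESeq2 adjusted p = 0.0155). Mef2c, a transcription factor freed by CaMK phosphorylation of class IIa histone deacetylases, had 21.9 ± 3.28 CPM in Dp16 and 17.5 ± 0.705 in WT, without overlap (0.32, SE 0.108, edgeR adjusted p = 0.127).

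**Figure D4:**
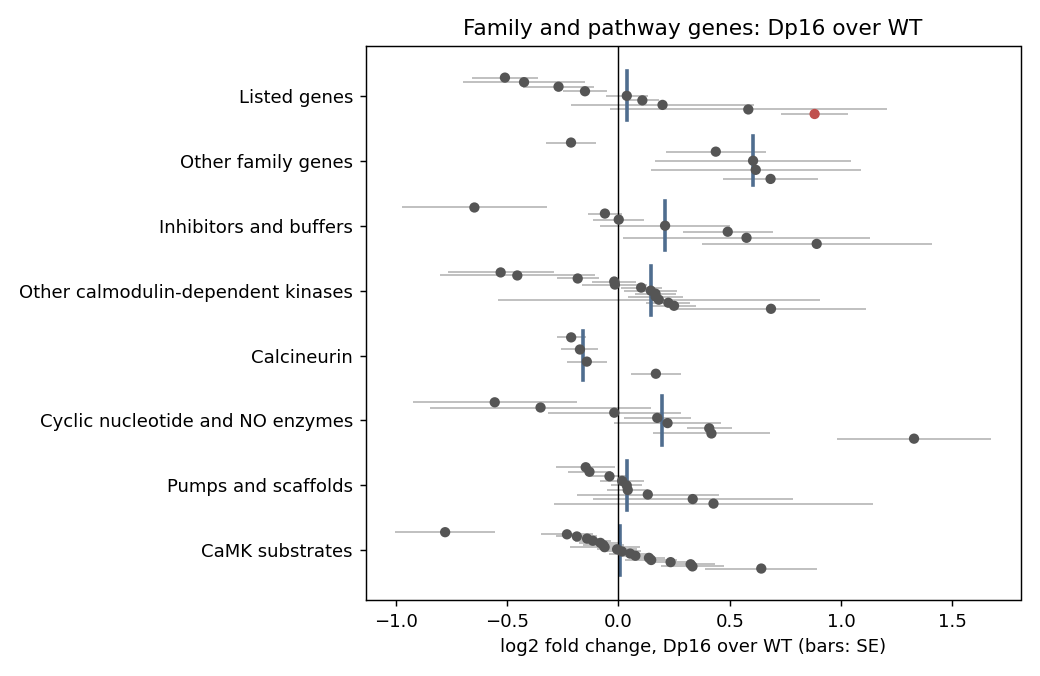
Log2 fold change (Dp16 over WT, edgeR) of every tested gene of the family and the 6 pathway lists, grouped by role; points are genes, bars 1 SE and vertical blue lines list medians. The red point is Camk1d at 0.88, the only gene shown that was past the edgeR threshold.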

How the data were processed

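The deposited files hold raw read counts per Ensembl gene, 1 table per library. STAR, HTSeq, FastQC and DESeq2, with build GRCm38, are named per the submitters' processing notes. No version, annotation release or strand setting is given in the sources used. The 5 rows that name no gene (58.1% to 65.4% of reads, mostly reads with several alignments) were left out. Symbols and exon lengths came from GENCODE M21 (54809 of 54838 genes matched).

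Counts were fitted in R 4.3.3 with edgeR 4.0.16 (default expression filter, TMM, quasi-likelihood F-test, no covariate, 4 Dp16 against 4 WT), with Benjamini-Hochberg adjustment over 19358 genes and a threshold of 0.05. Tests were two-sided. The SE is the log2 fold change divided by the root of the F statistic. Likeness to Camk1d and mean marker levels used log2 CPM with a prior count of 2. Levels between genes are per kilobase of exon union. The fits were tested on simulated data.

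1 related gene is not reported here. The members and lists were chosen with earlier results of these data known. Named are the members, other family genes and Pcp4, and in each pathway list the called genes or the 2 with the smallest p. Camk2n1, Pde1a, Aqp5 and Bhlha15 were added after values were seen. Alternatives were DESeq2 1.42.0, limma-voom (limma 3.58.1) with quality weights, other scalings, filters and lengths, a looser adjusted p of 0.10, a block by replicate number, and each library left out.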

Additional observations from a re-analysis of the deposited data

Results flagged for a closer look

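In 30 groups of 4 libraries checked for a lone value (the 9 listed genes, 5 other family genes and Pcp4, in each genotype), 3 held a library set apart by more than Dixon's critical value for the gap over the range, and chance gives about 1 in 20. Camk1 was lowest in Dp16 replicate 4 at 22.9 CPM, with a gap of 0.962 of the range. Camk2g was lowest in Dp16 replicate 3 at 14.3 CPM, with a gap of 0.847. Calml4 was lowest in WT replicate 3 at 0.0694 CPM, with a gap of 0.856.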

How the results depend on the processing

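Over all genes, 121 were called by edgeR, and 1980 by DESeq2, 396 by limma-voom, 223 without the low-count filter, 776 with the replicate block and 1308 at an adjusted p below 0.10. With 1 library left out it was 0 to 446, and it was 0 when Dp16 replicate 1 or WT replicate 2 was omitted, where 3583 and 3376 genes in that order had p below 0.05 before adjustment. Of the 9 listed genes 1 was called, 2 by DESeq2 (Camk1d and Camkk1), and 0 to 1 with 1 library left out. Of the pathway genes 0 were called, 3 by DESeq2 and 3 at an adjusted p below 0.10 (Pde1b, Pde1c and Crem in both cases), and 0 to 1 with 1 library left out (Pde1b without Dp16 replicate 2). Why these counts changed was not tested. The replicate block left 1 listed gene and 0 pathway genes called. Libraries with the same number correlated at 0.0777 to 0.191 after removal of group means, over 0.1 in 3 of 4 pairs, and 2 of 4 Dp16 libraries correlated best with their own number, so the numbers were not taken as pairs. The library named WT replicate 4 by its title carries the number 5 in its library name, so its number is in doubt. Log2 fold changes of the 9 genes moved by less than 1 SD of log2 CPM in 133 of 133 refits, but the sign turned in 1 refit each for Camk1 (-0.004) and Camk4 (-0.08) without WT replicate 2, and for Camk2b (-0.22) without Dp16 replicate 4. Per kilobase of exon in place of reads, the difference in share of Camk2d moved to -6.70 points and that of Camk2g to 6.23, and 14 of 90 alternative levels per kilobase moved by more than 1 SD. Camk2b, Camk4 and Camk2a had 7 to 159 reads a library.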

Other observations

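Pcp4l1, a relative of Pcp4, and Phkg1, a phosphorylase kinase subunit, were picked after their values were seen because they differed several-fold between libraries of both genotypes and in nearly the same order. Pcp4l1 had 84.7, 35.7, 139 and 30.8 CPM in Dp16 replicates 1 to 4 and 66.9, 19.3, 40.9 and 29.2 CPM in WT. Phkg1 had 7.49, 3.12, 11.8 and 5.26 CPM in Dp16 and 6.55, 2.90, 5.32 and 2.45 CPM in WT. Dp16 replicates 3 and 1 and then WT replicate 1 were highest for both genes, and neither passed between genotypes (log2 fold changes 0.89 and 0.69, edgeR adjusted p = 0.309 and 0.342).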
